A study of Mus musculus with 6 samples.

Results

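The phosphatidylinositol 3-kinase-related kinases (PIKKs) and the proteins that partner or assemble them were examined in mouse macrophages that had received a miR-342-3p mimic. The set held 9 genes of the 19938 measured: the kinase genes Atm, Atr, Prkdc and Smg1, the kinase-dead family member Trrap, the Atr partner Atrip, and the assembly factors Tti1, Tti2 and Telo2. The set was drawn up with earlier results of these arrays known, so its values are a description of these genes and not an independent test of them. A gene was represented by the probe set annotated to it alone, and where it had several by the one that was selected on its measured values, having the widest interquartile range over the 6 arrays. That rule made a choice only for Trrap, which had 2 probe sets, with interquartile ranges of 0.393 for the probe set taken and 0.125 for the other. The other 8 genes had 1 probe set each, giving 10 probe sets in all.

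The RAW264.7 line is a long-established mouse line that resembles macrophages. miR-342-3p-transfected cells received a synthetic RNA standing in for the mature microRNA, whereas control-transfected cells received a scrambled negative control mimic, and both groups were of the same line with no other treatment named. Total RNA was isolated 18 h after transfection, 150 ng was amplified and labelled, and 3 arrays were hybridized per group on the Affymetrix mouse gene 1.0 ST platform. The study describes the transfections as independent experiments, while the labels give only replicate numbers. Levels are log2 values from robust multi-array averaging (RMA), so a difference of 1 is a doubling of signal, and all differences below are miR-342-3p minus control.

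PIKKs are very large serine/threonine kinases that sit at the head of stress and growth signalling. ATM answers broken DNA ends and ATR, recruited by its partner ATRIP, answers stalled replication forks, while DNA-PKcs, the product of Prkdc, acts in end joining. SMG1 phosphorylates UPF1 in nonsense-mediated mRNA decay, and TRRAP, which has lost kinase activity, is a scaffold of histone acetyltransferase complexes. TELO2, TTI1 and TTI2 form the TTT complex, which works with HSP90 and the R2TP complex to fold and stabilise newly made PIKKs.

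The microRNA that was introduced is printed with its seed, bases 2 to 8, in capitals, because the seed is the stretch through which a microRNA pairs with its targets. The RefSeq sequence (GRCm38.p6) lies at chr12:108658680-108658702 on the plus strand.
miR-342-3p: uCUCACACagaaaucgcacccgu

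Promoter windows, from 250 bases before to 50 bases after the RefSeq start, were found for 7 of the 9 genes, and those of Atm, Atr and Tti1 are printed because they alone held a match to a cell cycle promoter motif. The motifs searched on both strands were TTCCCGC, of the E2F type, and TTCGAA and TTTGAA, the cell cycle homology element that is bound in genes of late cell cycle phases. Capitals mark the match, which in the Atm window is TTCCCGC on the opposite strand. The windows lie at chr9:53536622-53536921 on the minus strand for Atm, at chr9:95857347-95857646 on the plus strand for Atr, and at chr2:158028385-158028684 on the minus strand for Tti1, all in GRCm38.p6.
Atm: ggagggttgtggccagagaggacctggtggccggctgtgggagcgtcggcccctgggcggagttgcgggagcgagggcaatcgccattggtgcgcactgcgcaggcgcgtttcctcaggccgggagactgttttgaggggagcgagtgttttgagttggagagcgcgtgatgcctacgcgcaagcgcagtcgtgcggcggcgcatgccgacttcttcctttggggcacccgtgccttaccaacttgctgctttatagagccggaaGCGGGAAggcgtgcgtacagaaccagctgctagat
Atr: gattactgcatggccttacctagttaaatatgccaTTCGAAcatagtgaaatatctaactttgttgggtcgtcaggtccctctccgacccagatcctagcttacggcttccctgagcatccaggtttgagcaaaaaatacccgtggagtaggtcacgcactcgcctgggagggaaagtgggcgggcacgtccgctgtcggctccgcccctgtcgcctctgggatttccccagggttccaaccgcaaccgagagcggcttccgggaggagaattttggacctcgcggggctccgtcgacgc
Tti1: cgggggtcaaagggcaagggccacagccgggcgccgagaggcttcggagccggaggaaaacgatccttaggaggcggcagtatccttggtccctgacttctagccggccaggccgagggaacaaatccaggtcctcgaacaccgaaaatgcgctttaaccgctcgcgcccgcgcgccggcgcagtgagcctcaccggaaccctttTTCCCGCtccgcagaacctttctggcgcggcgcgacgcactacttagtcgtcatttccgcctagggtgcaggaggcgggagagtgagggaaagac

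The match in Atm began 15 bases after the start, that in Tti1 45 bases before it, and that in Atr 215 bases before it. TTCCCGC was held by windows of 2 of the 7 genes and of 5.29% of all 27025 genes with RefSeq windows of that length. TTCGAA was held for 1 of the 7 genes and for 1.80% of all genes, and TTTGAA for none of the 7 and for 20.2% of all genes. A match of letters does not show that a factor binds there.

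Macrophage markers were high in both groups, and the miR-342-3p arrays were less alike than the controls. The 10 macrophage marker genes, of which 2 were called lower and 2 higher, had a mean level of 10.8 to 10.98 on the miR-342-3p arrays and 10.94 to 10.96 on the control arrays. The 6 fibroblast markers, of which 1 was called higher (Pdgfra, 0.49, FDR 0.0314) and 0 lower, averaged 6.687 to 6.968 on miR-342-3p and 6.555 to 6.597 on control arrays, and the 6 lymphocyte markers measured averaged 5.463 to 5.851 on miR-342-3p and 5.442 to 5.542 on control arrays. Correlations over all genes were 0.9909 to 0.9926 among miR-342-3p arrays and 0.9982 to 0.9986 among control arrays. Calls were made at a false discovery rate (FDR) under 0.1 over all 19938 genes, with 3 arrays a group limiting the precision.

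Atm and Atr stood well below the controls on every miR-342-3p array, Trrap fell by the probe set used, and no gene of the set was called higher. Calls numbered 3 lower (Atr, Atm and Trrap), 0 higher and 6 not called among the 9 genes, where 7.42% of all genes were called lower, 4.14% higher and 11.6% in either direction. The groups did not overlap for 4 genes that were lower and for 3 that were higher after miR-342-3p, where 15.5% of all genes were lower, 21.4% higher and 36.9% either without overlap. The median log2 difference was -0.12 over the 9 genes and 0.069 over all genes. In bulk RNA, fewer cells expressing a gene and less RNA per cell cannot be told apart.

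**Figure D1:**
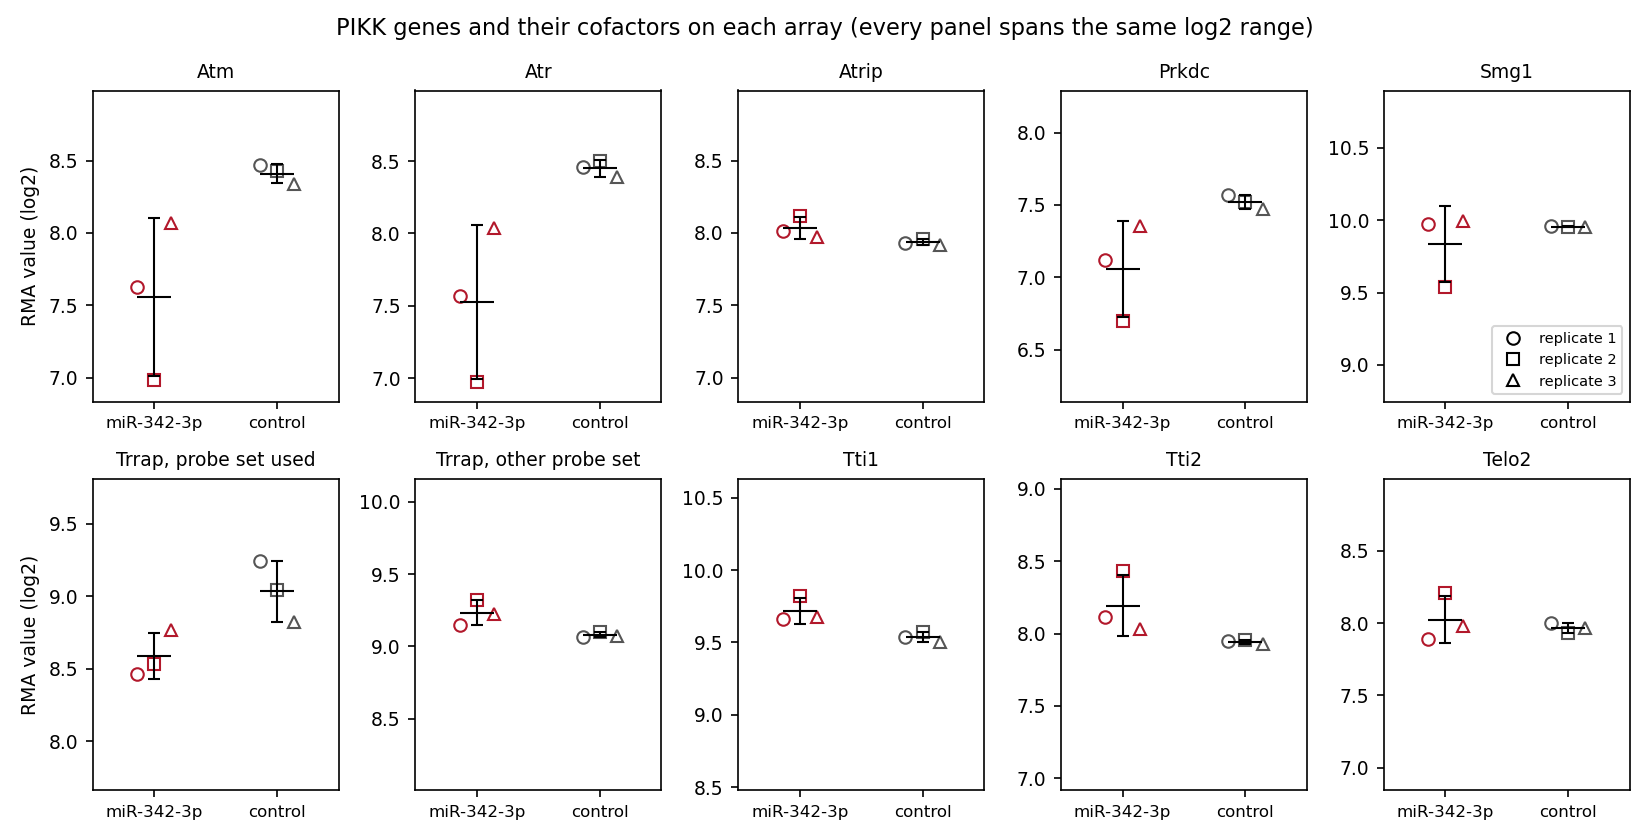
RMA log2 level (vertical axis) of each PIKK gene or cofactor, and of the second Trrap probe set, on the 3 miR-342-3p arrays (left, red) and the 3 control arrays (right, grey), with the mean and SD as bars and the replicate number as symbol. The 3 control values of Atm and Atr lie close together near 8.4, and all 3 miR-342-3p values lie below them, spread between 6.98 and 8.07.

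Atm (probe set 10593526, chr9:53437122-53536828, minus strand) encodes the kinase that signals broken DNA ends to CHK2 and p53. Its level was 7.62, 6.98 and 8.07 on miR-342-3p replicates 1, 2 and 3, against 8.47, 8.43 and 8.34 on control replicates 1, 2 and 3. All miR-342-3p arrays were below all controls, with replicate 2 far lowest and replicate 3 closest to the controls. The means were 7.56 ± 0.54 and 8.41 ± 0.068 (SD, n = 3 arrays each), a log2 difference of -0.85 (SE 0.22, 95% interval -1.36 to -0.34, FDR 0.0642), or a ratio of 0.555. The call was lost without miR-342-3p replicate 1 (-0.88, FDR 0.138), and without miR-342-3p replicate 2 the difference was -0.56 (FDR 0.0598). It was also lost without control replicate 1 (-0.82, FDR 0.212), 2 (-0.84, FDR 0.198) or 3 (-0.89, FDR 0.178), with the difference little changed. Leaving out a control array cut the lower calls over all genes from 1479 to between 102 and 140.

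Atr (probe set 10587892, chr9:95857597-95953217, plus strand) encodes the kinase of stalled forks, which activates CHK1. It read 7.57, 6.98 and 8.03 on miR-342-3p replicates 1 to 3 and 8.46, 8.50 and 8.39 on control replicates 1 to 3. The pattern matched that of Atm array by array, again without overlap and with replicate 2 lowest. Atr averaged 7.53 ± 0.53 in miR-342-3p-transfected and 8.45 ± 0.059 in control-transfected cells (SD, n = 3 each), a log2 difference of -0.92 (SE 0.22, 95% interval -1.42 to -0.43, FDR 0.0490) and a ratio of 0.527. The Atr call was lost without miR-342-3p replicate 1 (FDR 0.115). It was also lost without control replicate 1 (-0.92, FDR 0.171), 2 (-0.897, FDR 0.172) or 3 (-0.955, FDR 0.144), when few of all genes were called.

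Prkdc (probe set 10433797, chr16:15637444-15842239) encodes DNA-PKcs, which KU brings to broken ends. Its values were 7.12, 6.70 and 7.36 on miR-342-3p replicates 1 to 3, against 7.57, 7.52 and 7.47 on control replicates 1 to 3. Every miR-342-3p value was below every control value, in the same array order as Atm and Atr. Its log2 difference of -0.46 (SE 0.15, 95% interval -0.80 to -0.13, FDR 0.103) lay just outside the threshold, with means of 7.06 ± 0.33 and 7.52 ± 0.048 (SD, n = 3 each). Without miR-342-3p replicate 2 it was -0.28 (FDR 0.102). Without miR-342-3p replicate 3 it was -0.61 and was called (FDR 0.0236). Repeating quantile normalization (FDR 0.0715), centring each array on its median (FDR 0.0753) or leaving out genes below the median level (FDR 0.0745) also brought it under the threshold. Leaving out those genes raised the share called lower to 19.6% of the genes kept. Prkdc was called under 6 of 17 alternatives and stayed uncalled under 11. It was not called without control replicate 1 (FDR 0.296), 2 (FDR 0.26) or 3 (FDR 0.241). Nor was it called without miR-342-3p replicate 1 (FDR 0.169) or with array weights (FDR 0.122).

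Trrap (chr5:144767737-144859778) gave opposite readings from its 2 probe sets. The probe set used, 10527423, read 8.46, 8.53 and 8.77 on miR-342-3p replicates 1 to 3 and 9.24, 9.04 and 8.82 on control replicates 1 to 3. The other, 10527340, read 9.15, 9.32 and 9.23 on miR-342-3p replicates 1 to 3 and 9.07, 9.10 and 9.08 on control replicates 1 to 3. So the groups were separate in both, lower after miR-342-3p in the first and higher in the second, and in the first the controls were as spread as the miR-342-3p arrays.

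The first Trrap probe set differed by -0.45 (SE 0.12, 95% interval -0.73 to -0.17, FDR 0.0718), with means of 8.59 ± 0.16 for miR-342-3p and 9.03 ± 0.21 for control (SD, n = 3 each). The second differed by 0.15 (SE 0.075), with means of 9.23 ± 0.086 and 9.08 ± 0.019 (SD, n = 3 each) and an FDR of 0.245 over the 21789 probe sets with 1 gene. Averaged over both probe sets the difference was -0.15 (FDR 0.301). The Trrap call therefore belonged to 1 probe set. It was also lost without miR-342-3p replicate 1 (FDR 0.162) or 2 (FDR 0.114) and with array weights (FDR 0.244). Without control replicate 1 (-0.34, FDR 0.263), 2 (-0.44, FDR 0.225) or 3 (-0.55, FDR 0.113), when few of all genes were called, the Trrap call was lost as well.

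Smg1 (probe set 10567229, chr7:118131308-118244437, minus strand) did not separate the groups. It read 9.98, 9.54 and 9.997 on miR-342-3p replicates 1 to 3 and 9.96, 9.95 and 9.96 on control replicates 1 to 3. Replicate 2 alone was low, and the other miR-342-3p arrays lay slightly above the controls. The difference of -0.12 (SE 0.12, 95% interval -0.40 to 0.16, FDR 0.526) became 0.030 without miR-342-3p replicate 2. The interval spans a ratio of 0.759 to 1.12.

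None of the 4 cofactors was called, and their fitted differences lay above 0. Tti1 (probe set 10489195, chr2:157981803-158028475, minus strand), a scaffold of the TTT complex, read 9.66, 9.82 and 9.68 on miR-342-3p replicates 1 to 3 and 9.54, 9.58 and 9.50 on control replicates 1 to 3. Tti2 (probe set 10571221, chr8:31150316-31164703), another TTT subunit, read 8.12, 8.43 and 8.03 on miR-342-3p and 7.95, 7.96 and 7.93 on control replicates 1 to 3. In both genes all miR-342-3p arrays were above all controls, with replicate 2, the lowest for Atm and Atr, the highest. Tti1 differed by 0.18 (SE 0.078, 95% interval 0.0048 to 0.36, FDR 0.188) and Tti2 by 0.25 (SE 0.11, 95% interval 0.0079 to 0.50, FDR 0.187), neither past the threshold. Tti1 was called after repeated quantile normalization (0.25, FDR 0.0652) and Tti2 without miR-342-3p replicate 3 (0.33, FDR 0.082), while without miR-342-3p replicate 2 the Tti2 difference was 0.13.

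Atrip (probe set 10596967, chr9:109059747-109074124, minus strand), which brings ATR to single-stranded DNA, read 8.01, 8.12 and 7.97 on miR-342-3p replicates 1 to 3, against 7.93, 7.96 and 7.92 on control replicates 1 to 3. Telo2 (probe set 10448842, chr17:25099569-25115974, minus strand), the TTT subunit that binds the kinases, read 7.89, 8.21 and 7.98 on miR-342-3p replicates 1 to 3 and 8.002, 7.93 and 7.97 on control replicates 1 to 3. Atrip was slightly higher on every miR-342-3p array, while the Telo2 groups overlapped. The Atrip difference was 0.098 (95% interval -0.073 to 0.27, FDR 0.409) and the Telo2 difference 0.057 (95% interval -0.16 to 0.27, FDR 0.702), and neither was called.

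**Figure D2:**
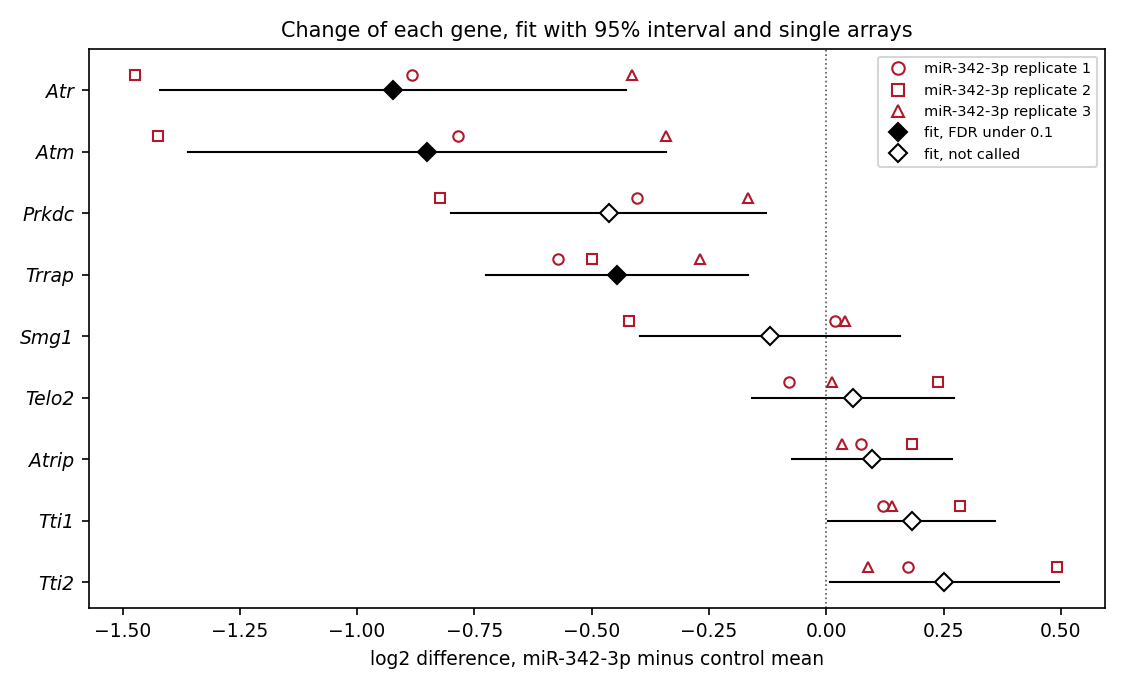
Log2 difference from the control mean (horizontal axis) for each gene, with the fitted value and its 95% interval (diamond and line, filled where the FDR was under 0.1) and the 3 miR-342-3p arrays as red symbols. The replicate 2 square is farthest from 0 in Atr, Atm, Prkdc, Smg1, Telo2, Atrip, Tti1 and Tti2, on the low side for the first 4 and on the high side for the others.

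The size of the response differed among the miR-342-3p arrays in the same way for several of these genes. Against the control mean, Atr changed by -0.88, -1.47 and -0.42 on replicates 1, 2 and 3, and Prkdc by -0.40, -0.82 and -0.17. Tti2 changed by 0.17, 0.49 and 0.089 and Atrip by 0.075, 0.18 and 0.035 on the same arrays. In Atm, Atr, Prkdc, Tti2 and Atrip replicate 2 thus moved most and replicate 3 least, whichever the direction, while in Trrap replicate 1 moved most (-0.57, -0.50 and -0.27). Over the 6 arrays Pearson's r of Atm was 0.997 with Atr, 0.998 with Prkdc and -0.975 with Tti2, points that share the 2 groups and the same hybridizations. The median change over all genes was 0.113, 0.0363 and 0.0251 on replicates 1, 2 and 3, a measure in which rises and falls cancel. Array weights over all genes, lower for arrays that deviate more, were 0.235, 0.354 and 0.925 on miR-342-3p replicates 1, 2 and 3. They were 1.69, 2.29 and 3.36 on control replicates 1, 2 and 3.

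The genes whose array profile lay nearest to each member were found by the root mean square difference of control-centred log2 values over the 6 arrays. Top2a, the topoisomerase that untangles replicated DNA, was nearest to Atm (0.0485), followed by Bclaf3 (0.0511). Diaph3, an actin-nucleating formin, was nearest to Atr (0.0386), followed by Kif11, the mitotic spindle motor (0.0601). Only 23 genes lay within 0.1 of Atm and 13 within 0.1 of Atr, a count that depends on the size of the change, since few genes change this much.

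Usp15 (0.0291) and Syne1 (0.0314) were nearest to Prkdc, with 155 genes within 0.1, and Fam72a (0.0564) and Fancl (0.0576) to Trrap, with 28. Nufip2 (0.014) and Ankrd28 (0.0245) were nearest to Smg1, with 296 genes within 0.1. The cofactors changed little, so more genes lay this near. Within 0.1 lay 4586 genes for Atrip (nearest Sec23b, 0.00785, and Snrk, 0.0119), 2717 for Tti1 (Igbp1b, 0.0109, and Klf6, 0.0137), 2465 for Telo2 (Cdc42se1, 0.0138, and Sec24c, 0.0148) and 967 for Tti2 (Llgl2, 0.0175, and Mapre3, 0.0205).

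Among 80 genes that work with the PIKKs, drawn from 6 pathway lists, 22 were called lower, 3 higher and 55 not called, and their median difference was -0.11 against 0.069 over all genes, of which 7.42% were called lower and 4.14% higher. All genes include those of low level. Among the 9162 protein-coding genes at a mean level of at least 7.29, the share called lower was 6.75% to 20.33% by genomic span. The checkpoint genes that act with ATM and ATR held most of the lower calls. In that list 15 of 24 genes measured were called lower and 0 higher, with a median of -0.38, and 18 were below the controls without overlap, as were 15.5% of all genes. This count fell to 1, 1 and 2 without control replicates 1, 2 and 3, when 0.512%, 0.577% and 0.702% of all genes were called lower.

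Chek1, the kinase that ATR activates, read 8.68, 8.67 and 9.10 on miR-342-3p replicates 1 to 3 and 9.65, 9.62 and 9.65 on control replicates 1 to 3. All miR-342-3p arrays were clearly below the tightly grouped controls, and the difference was -0.82 (SE 0.12, FDR 0.0136). Chek2, the kinase that ATM activates, read 7.30, 7.97 and 7.79 on miR-342-3p and 7.93, 7.81 and 7.82 on control replicates 1 to 3. Its groups overlapped and it was not called (-0.17, FDR 0.483). Whether the changes of Chek1 and Chek2 differ was not tested.

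Other lower checkpoint genes were Rpa3, a subunit of the single-strand binding protein that recruits ATRIP (-1.03, FDR 0.0460), Tipin, of the fork protection complex (-0.83, FDR 0.0255), and Etaa1, an activator of ATR at RPA-coated DNA (-0.80, FDR 0.0246). Of the MRE11 complex, which brings ATM to broken ends, Mre11a (-0.36, FDR 0.0453) and Nbn (-0.44, FDR 0.0475) fell, while Rad50 had a larger value with more spread (-0.88, FDR 0.139) and was not called. Rad50 read 8.69, 7.49 and 9.01 on miR-342-3p and 9.30, 9.26 and 9.27 on control replicates 1 to 3, with replicate 2 far lowest as for Atm. Mre11a, Nbn and Rad50 were chosen for mention after their values were seen.

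The end joining list, of factors that act with DNA-PKcs, had 3 of 8 genes called lower and 0 higher, with a median of -0.10. Of all genes 7.42% were called lower and 4.14% higher. The genes called in this list were both KU subunits and the ligase partner Xrcc4 (-0.39, FDR 0.0982). Xrcc5 read 7.69, 8.22 and 8.21 on miR-342-3p and 8.67, 8.58 and 8.54 on control replicates 1 to 3 (-0.56, FDR 0.0571). Xrcc6 read 7.79, 8.09 and 8.05 on miR-342-3p and 8.45, 8.55 and 8.44 on control replicates 1 to 3 (-0.50, FDR 0.0267). For both KU genes replicate 1 was lowest and the groups did not overlap, unlike Prkdc itself, for which replicate 2 was lowest. Without any 1 of the control arrays no gene of this list was called. Without control replicates 1, 2 and 3 only 0.512%, 0.577% and 0.702% of all genes were called lower.

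In the nonsense-mediated decay list 0 of 6 genes measured were called, where 11.6% of all genes were called in either direction. The median was 0.187, and 3 genes of the list had an FDR between 0.12 and 0.155. Upf1, the helicase that SMG1 phosphorylates, read 9.17, 9.57 and 9.29 on miR-342-3p and 9.21, 9.11 and 9.14 on control replicates 1 to 3, with overlap (0.19, FDR 0.287). Smg9 (0.26, FDR 0.12) and Smg8 (0.40, FDR 0.155), which form a complex with SMG1, had values above 0 and Upf2, which bridges UPF1 to the exon junction, a value below 0 (-0.80, FDR 0.135). Smg8, Smg9 and Upf2 were likewise chosen after their values were seen. After repeated quantile normalization 2 genes of this list were called higher, where 9.11% of all genes were.

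Of 27 genes of the acetyltransferase complexes that TRRAP joins, 2 were called lower and 1 higher, and 24 were not called. These shares were near the 7.42% lower and 4.14% higher of all genes, those of low level included. No gene of this list was called without any 1 control array. Without control replicates 1, 2 and 3 only 0.512%, 0.577% and 0.702% of all genes were called lower, and 0.502%, 0.441% and 0.471% higher. The call of Epc1 was lost under 10 of 17 alternatives. The lower genes were the acetyltransferase Kat2b (-0.43, FDR 0.0279) and Meaf6 (-0.34, FDR 0.0504), and the higher was Epc1 (0.25, FDR 0.0916), of the complex of Kat5. The median of -0.048 turned to 0.0083 after repeated quantile normalization, so the sign for this list depended on the scaling.

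The chaperones that work with the TTT complex were partly lower. Of 8 genes measured in the R2TP and HSP90 list, which also held Csnk2a1 and Csnk2a2, 2 were called lower and 0 higher. The median was -0.28, 7 of the 8 values lay below 0, and 7.42% of all genes were called lower. Hsp90aa1, named after its value was seen, had the largest value of the list but was not called (-0.54, FDR 0.118). The count was 6 without miR-342-3p replicate 2, when 9.18% of all genes were called lower. It was 1, 0 and 0 without control replicates 1, 2 and 3, when 0.512%, 0.577% and 0.702% of all genes were. Ruvbl1, an AAA+ ATPase of R2TP, read 8.93, 9.02 and 8.99 on miR-342-3p and 9.41, 9.45 and 9.48 on control replicates 1 to 3, as tight in one group as in the other (-0.47, SE 0.072, FDR 0.0163). Wdr92, an R2TP-associated factor, also fell (-0.42, FDR 0.0275), whereas Ruvbl2, the partner ATPase of Ruvbl1, was not called (-0.21, FDR 0.187).

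Mtor, the family member that governs growth, read 8.85, 9.07 and 8.95 on miR-342-3p and 8.92, 8.86 and 8.85 on control replicates 1 to 3, with overlap (0.078, FDR 0.539). Its complexes had 0 of 7 genes called lower and 2 higher, with a median of 0.065. Of all genes 7.42% were called lower and 4.14% higher. The genes called higher in the list were Akt1s1, an inhibitory subunit of complex 1 (0.47, FDR 0.0613), and Mlst8, a subunit of both complexes (0.43, FDR 0.0460). Both were above the controls on all miR-342-3p arrays, and neither was called when any 1 control array was left out. Without control replicates 1, 2 and 3 only 0.502%, 0.441% and 0.471% of all genes were called higher.

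**Figure D3:**
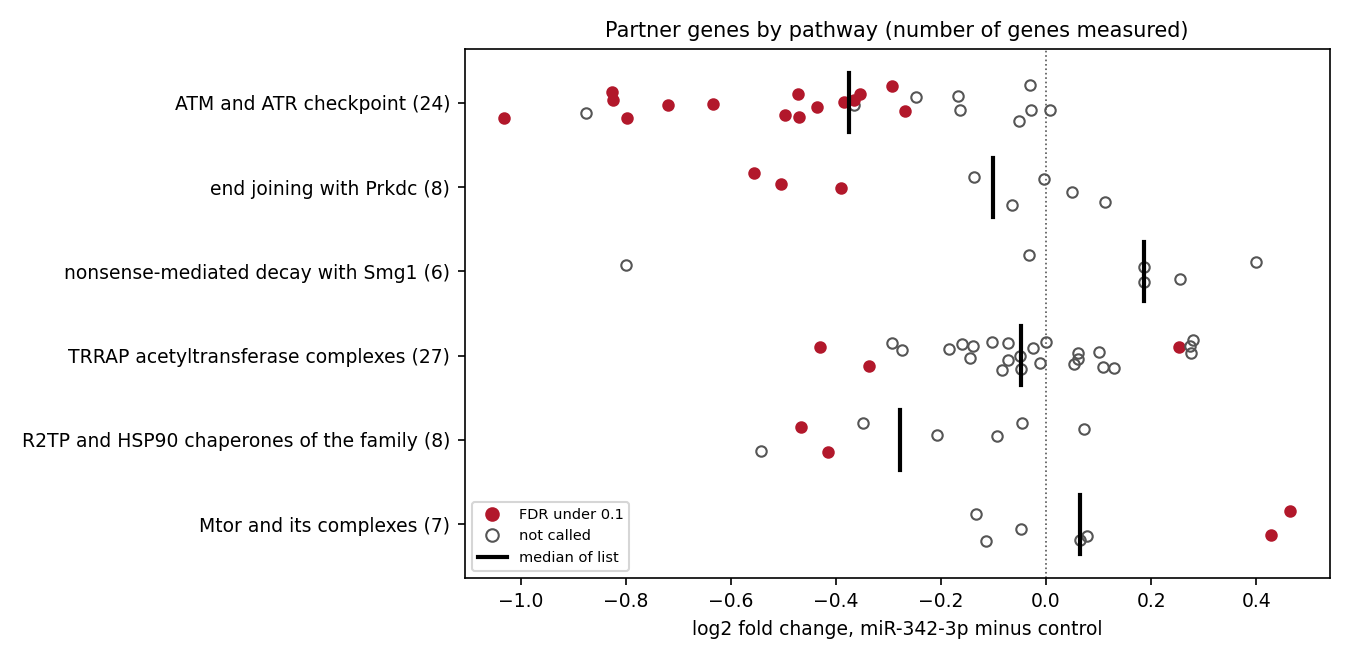
Log2 fold change, miR-342-3p minus control (horizontal axis), of each partner gene by pathway (rows, with the number of genes measured), filled red at an FDR under 0.1, with the list median as a bar. Of the checkpoint genes 23 of 24 lie below 0, while the TRRAP complexes straddle 0 and both Mtor complex genes that were called lie above it.

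Proliferation markers were lower on the miR-342-3p arrays, most of them short of the threshold. Their mean level was 10.46 to 10.88 on miR-342-3p arrays and 11.09 on every control array. All 7 measured were below the controls without overlap, as were 15.5% of all genes, and the median of the 7 was -0.30. Of the 7 markers 2 were called lower, where 7.42% of all genes were. Those called were Aurka (-0.38, FDR 0.0737) and Top2a (-0.84, FDR 0.0588). Mki67, the standard proliferation marker, had a larger value with more spread (-1.06, FDR 0.185). No marker was called without miR-342-3p replicate 1, when 4.95% of all genes were called lower, or without any 1 control array. Without control replicates 1, 2 and 3 only 0.512%, 0.577% and 0.702% of all genes were called lower. Leaving out miR-342-3p replicate 2 or 3 gave 4 markers called lower, when 9.18% and 12.1% of all genes were. The part of this difference in the levels of Atm, Atr and the checkpoint genes was not tested.

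Several members have a neighbouring gene within 2000 bases, and these neighbours were described after their values had been seen. Distances are between the outer ends of the genes. For Atm and Tti1 those ends lie farther out than the starts used for the promoter windows. Npat, a coactivator of histone genes, starts 61 bases from Atm on the opposite strand, at base 53536889, inside the Atm window printed above. It read 7.91, 7.69 and 8.50 on miR-342-3p and 8.66, 8.64 and 8.55 on control replicates 1 to 3, with replicate 2 lowest as for Atm (-0.59, FDR 0.0914). Mcm4, a subunit of the replicative helicase, lies 44 bases from Prkdc and read 9.24, 9.38 and 9.61 on miR-342-3p and 9.96, 9.95 and 9.89 on control replicates 1 to 3 (-0.53, FDR 0.0275). For Mcm4 replicate 1 was lowest, unlike Prkdc.

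The other neighbours differed among themselves in how they sat beside their members. Trex1, a DNA exonuclease, lies 24 bases beyond the 3′ end of Atrip on the same strand and rose by 0.38 (FDR 0.0741), with 8.41, 8.54 and 8.14 on miR-342-3p and 7.98, 7.94 and 8.02 on control replicates 1 to 3, and Atrip, with the same sign and array order, was not called. Rprd1b, which starts at the outer end of Tti1 on the opposite strand, had a value of -0.21 (FDR 0.214), opposite in sign to Tti1. The transcript 1700065D16Rik, which overlaps the start of Atr by 285 bases on the other strand, had a value of 0.23 (FDR 0.192), also opposite in sign to its member. Xrn1, downstream of Atr on the same strand, read 8.32, 7.72 and 8.70 on miR-342-3p and 8.69, 8.69 and 8.79 on control replicates 1 to 3, in the sign and array order of Atr but with overlap, and was not called (-0.47, FDR 0.192). Shisa5 (-0.060) near Atrip, Mak16 (-0.15) at Tti2 and Ift140 (-0.10) at Telo2 were not called. The calls of Npat and Trex1 were each lost under 9 of 17 alternatives and that of Mcm4 under 4.

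**Figure D4:**
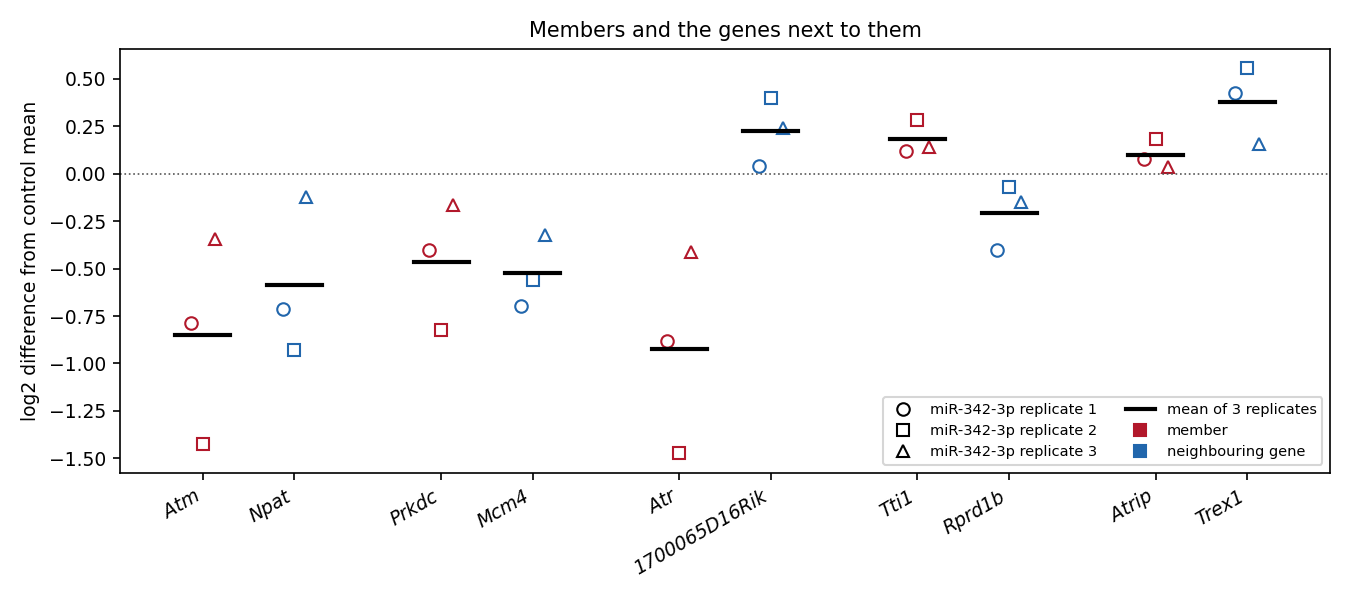
Log2 difference from the control mean (vertical axis) on the 3 miR-342-3p arrays for members (red) and a gene next to each (blue), with the mean as a bar. Atm and Npat lie below 0 on all 3 arrays, as do Prkdc and Mcm4, while Atr and Tti1 lie on the other side of 0 from 1700065D16Rik and Rprd1b, the neighbours drawn beside them.

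The 5 family genes of the set are long, with a genomic span of 99707 bases for Atm, 95621 for Atr, 204796 for Prkdc, 113130 for Smg1 and 92042 for Trrap, whereas the cofactors span 14378 for Atrip, 14388 for Tti2, 16406 for Telo2 and 46673 for Tti1. Span was therefore set against the change over all genes, after the values of the members had been seen and with the members left out. Among the 9162 protein-coding genes with a mean level of at least 7.29, that of the lowest member, 17.06% of the 1131 genes spanning 90000 bases or more were called lower and 4.6% higher. In the same set 6.75% of the 2371 genes under 10000 bases were called lower and 7.76% higher. Between 10000 and 50000 bases, the range that holds the cofactors, 16.24% of 4514 genes were called lower and 5.72% higher. That lower share was close to the share among the longest genes. The share called lower was highest between 50000 and 90000 bases, at 20.33% of 1146 genes. Spearman's rho of span with the change was -0.233 over these 9162 genes, which share the same 6 arrays and are not independent of each other. Without the limit on level rho was -0.142 over 18553 protein-coding genes, and 8.52% of the 2569 genes spanning 90000 bases or more were called lower, close to the 7.42% of all genes.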

How the data were processed

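The authors processed the array scans by RMA (background adjustment, quantile normalization, summarization) and deposited log2 values for 35556 probe sets on 6 arrays. Its version was not given in the sources used here. Arrays have no read depth.

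Platform annotation gave 1 gene for 21789 probe sets, several for 1621 and none for 12146. Probe sets with several genes were left out. limma 3.58.1 (lmFit, eBayes) in R 4.3.3 was fitted over 19938 genes without covariates, with Benjamini-Hochberg adjustment over all genes. The steps were first tested on simulated data, in which 12.2% of calls were false at an FDR under 0.1. The simulation gave both groups the same spread, unlike these arrays, so it does not cover unequal spread. Groups came from the sample labels. Figures were drawn with matplotlib 3.10.9.

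The members, lists and rules were chosen with earlier results of these data known. Named were all members, Mtor, Chek1, Chek2, Upf1, Xrcc5, Xrcc6, Ruvbl1 and Ruvbl2, up to 4 called genes of each list in its main direction and 2 in the other, and the 2 nearest profiles per member. Marker lists and neighbours within 2000 bases were added. Some listed genes, among them Trp53, Dclre1c, Upf3a, Upf3b, Hsp90ab1, Csnk2b and Ccnb1, were not analysed here. Positions, promoter windows and the microRNA are from RefSeq (GRCm38.p6). A planned description by protein length was not run and genomic span was used instead.

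Alternatives added the replicate number as a block, left out each array in turn, and used other probe set choices, scalings, filters, priors, array weights, the methods' t-test and a stricter threshold.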

Additional observations from a re-analysis of the deposited data

How the results depend on the processing

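With 3 arrays a group, several calls depended on single arrays. Of the 9 members, the count called lower was 3 and ranged from 0 to 4 when 1 array was left out, was 0 with the methods' t-test after adjustment and 1 at an FDR under 0.05. The count called higher was 0, ranged from 0 to 1 with 1 array left out, and was 1 after repeated quantile normalization and 1 with the unadjusted methods' t-test. The 22 partner genes called lower ranged from 1 to 29 with 1 array left out, and were 1 with the adjusted t-test and 12 at an FDR under 0.05. The 3 called higher ranged from 0 to 7 with 1 array left out, and were 1 with arrays centred on their median, 8 after repeated quantile normalization, 6 among genes above the median level, 7 with the unadjusted and 0 with the adjusted t-test, and 1 at an FDR under 0.05. All genes called lower and higher numbered 1479 and 825, against 1379 and 408 with median centring, 1424 and 1817 after repeated quantile normalization, between 102 and 140 lower with a control array left out, and between 986 and 2422 lower with a miR-342-3p array left out. Higher calls over all genes numbered between 88 and 100 with a control array left out, and between 675 and 2104 with a miR-342-3p array left out. With the adjusted t-test 0.11% of all genes were called lower and 0.13% higher, and with the unadjusted t-test 9.81% and 10.4%. At an FDR under 0.05 these shares were 3.32% and 1.56%, and among the 9969 genes above the median level 19.6% and 10.9%. The sign turned for Trrap with the probe set of the highest mean (0.15). With 1 array left out in turn the sign turned for Smg1 (-0.20 to 0.030), Telo2 (-0.034 to 0.125), Nufip2 (-0.182 to 0.042), Ankrd28 (-0.215 to 0.037), Cdc42se1 (-0.041 to 0.116) and Sec24c (-0.039 to 0.111), each without miR-342-3p replicate 2, and for Chek2 (-0.307 to 0.026) without miR-342-3p replicate 1. The causes of these shifts were not tested. Same-numbered arrays did not deviate together (correlations of -0.308, -0.163 and -0.106), so the numbers were not taken as pairs. With the replicate block 4 members were called lower, Prkdc included (FDR 0.0543), and 23 partner genes lower and 2 higher, Epc1 no longer among them (FDR 0.193).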
